A study of Mus musculus with 3 samples.

Results

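The keratins of the companion layer and of wounded epidermis, Krt6a, Krt6b, Krt16, Krt17 and Krt75, were followed in single cells of mouse skin. They were chosen by name and are 5 of the 19927 gene symbols that the 3 libraries list. Krt6a, Krt16, Krt17 and Krt75 were listed in each library, and Krt6b in 1 library only. A gene that a library does not list was taken as 0 counts there.

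Keratins build the intermediate filaments of epithelial cells, and each filament pairs a type I chain with a type II chain. Krt6a, Krt6b and Krt75 are type II keratins, and Krt16 and Krt17 are type I keratins that pair with them. Krt75 is the classical keratin of the companion layer, the single sheet of cells between the inner and the outer root sheath of the hair follicle. Krt6a also marks the inner layer of the bulge, and Krt17 the outer root sheath. In the epidermis between the follicles, Krt6a, Krt6b, Krt16 and Krt17 are best known as keratins that keratinocytes switch on around a wound.

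The study asked how loss of the vitamin D receptor in keratinocytes changes the regressing hair follicle. Epidermal and hair follicle cells were freed with trypsin from dorsal skin of mice at P18 (postnatal day 18), and the skin of 3 male mice was combined for each library. Both control libraries came from Vdr flox/flox mice, and 1 library came from Vdr cKO mice, which are Vdr flox/flox and carry Krt14cre. All 3 libraries thus share the floxed Vdr allele, and in Vdr cKO mice Cre is driven by the Krt14 promoter, which is active in keratinocytes of the basal layer and the outer root sheath. With 1 Vdr cKO library, no test between the genotypes was possible. The difference between control 1 and control 2 is therefore the only measure of the spread between libraries. All intervals given are exact intervals at 95%, by the Poisson distribution for levels and by the Clopper-Pearson method for cell shares. Those of folds between libraries come from the Clopper-Pearson interval of a library's share in the counts of both, scaled by library totals. Only counting error is covered, and the intervals are too narrow if copies of 1 molecule were counted more than once. Each count is taken as independent, so intervals of levels and folds are also too narrow where few cells held many of a gene's counts.

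The targeted gene was read first. Levels are given as CPM, a gene's share of its library's counts scaled to a fixed total. Vdr stood at 40.7 in control 1 (37.9 to 43.7) and 35.9 in control 2 (33.7 to 38.2), and at 80.8 (77.7 to 84.0) in the library that carries the label Vdr cKO, which is therefore called the cKO-labelled library. Counts per gene cannot tell a transcript with the floxed part from one without it. After filtering, the libraries held 1480, 1658 and 2622 cells, with 18802408, 28690129 and 30954897 counts and with medians of 4055 to 4492.5 counts per cell. The median number of detected genes per 1000 counts of a cell, at its full depth, was 91.9 in control 1, 118 in control 2 and 165 in the cKO-labelled library, which stood apart. Of the cell barcodes of each library, 18 to 21 also occurred in another library. Levels of cell type markers differed between the libraries as well. Summed basal markers (Krt14, Krt5 and 4 others) were at 4587, 3267 and 12427 CPM in control 1, control 2 and the cKO-labelled library, inner root sheath markers at 0.585, 2.54 and 235 CPM, bulge markers at 73.6, 31.5 and 303 CPM, and suprabasal markers at 69205, 79333 and 52364 CPM. The part of cell types in the results on these keratins was not tested. In sums over a library, fewer cells of a type and less RNA per cell cannot be told apart.

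The type II genes lie together on chromosome 15 and the type I genes on chromosome 11, all on the minus strand of GRCm38 (mm10, GENCODE M21). Krt75 spans chr15:101563345-101573904, Krt6b chr15:101676023-101680287 and Krt6a chr15:101689910-101694307, with 9 exons each in the transcripts used here. Krt16 spans chr11:100246091-100248902 and Krt17 chr11:100256217-100261029, with 8 exons each. Krt6a and Krt6b are near copies. Their coding sequences matched at 97.8% of 1662 aligned bases, and 43.6% of the 50-base windows of the Krt6a transcript occur unchanged in Krt6b. No such window was shared in the last 300 bases of the transcripts, the end from which this method starts to copy the RNA. The ends of both coding sequences in the last exon, which lie before those 300 bases, are shown to set the copies side by side. They are still much alike, with 3 of the 90 Krt6a bases differing. Capitals mark the bases that differ or that only Krt6b has.
Krt6a, chr15:101690467-101690556: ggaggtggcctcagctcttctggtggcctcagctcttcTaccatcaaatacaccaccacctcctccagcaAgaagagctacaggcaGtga
Krt6b, chr15:101676529-101676621: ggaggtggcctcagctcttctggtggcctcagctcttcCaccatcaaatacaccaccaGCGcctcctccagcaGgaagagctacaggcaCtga

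Krt6a and Krt17 were higher in the cKO-labelled library than in either control, by more than the controls differed in summed counts. Krt75 was close to absent in both controls and present in that library. Krt16 was not separated from the spread between the controls, and Krt6b was barely detected in any library. Counts from the 3′ ends of transcripts are not scaled by length, so levels are compared between libraries and not between genes.

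Krt6a was at 13.9 CPM (261 counts) in control 1 and 37.0 CPM (1061 counts) in control 2, against 164 CPM in the cKO-labelled library (5065 counts). The last value was 11.8-fold that of control 1 (10.4 to 13.4) and 4.42-fold that of control 2 (4.14 to 4.73), while the controls differed 2.66-fold. Krt6a was thus above both controls, and its fold depended on which control was used. In control 1 and control 2, 3 cells held 54.8% and 67.7% of the Krt6a counts, and the intervals do not cover this clustering. On the scale of log2 CPM with 1 CPM added, the difference of Krt6a from the mean of the controls was 2.64.

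Krt6b, its near copy, had 0 counts in both controls and 2 counts in the cKO-labelled library, or 0.0646 CPM. All 3 values are at or under the floor of 3 counts, so no fold is given. Both counts were in cells that also held Krt6a, and with sequences this alike they are uncertain.

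Krt75, the companion layer keratin, had 5 counts in each control, or 0.266 CPM in control 1 and 0.174 CPM in control 2. The library labelled Vdr cKO held 1485 counts, or 48.0 CPM. The ratio was 180 to control 1 (77.1 to 556) and 275 to control 2 (118 to 849), with the wide intervals that 5 counts allow. On the log2 scale with 1 CPM added the difference was 5.33. The controls' counts came from 3 cells with 1, 4 and 5 counts of Krt75. Those cells held 3, 83 and 42 counts of Krt17 and none of Krt6a or Krt16.

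The promoter of Krt75 was the only one of the 5 that could be read from the RefSeq promoter sequences used here (GRCm38.p6). Its 250 bases before the transcript start, chr15:101573905-101574154 on the minus strand, are shown for this reason.
Krt75 promoter: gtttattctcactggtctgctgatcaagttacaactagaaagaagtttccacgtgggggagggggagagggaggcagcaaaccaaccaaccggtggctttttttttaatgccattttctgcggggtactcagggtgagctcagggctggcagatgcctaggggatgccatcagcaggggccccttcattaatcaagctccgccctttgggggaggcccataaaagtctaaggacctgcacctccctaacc
The 300-base promoter window, which runs 50 bases past the start, held no match on either strand to TGANTCA (the AP-1 motif), TATAAA or CCAAT. These letters are found in 7.81%, 13.6% and 37.4% of 32851 promoters of the same length.

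Krt17, the type I keratin of the outer root sheath and of wounded epidermis, was at 627 CPM in control 1 and 764 CPM in control 2, against 2082 CPM in the cKO-labelled library. The controls differed by 1.22-fold, and the last value was 3.32-fold that of control 1 (3.26 to 3.39) and 2.73-fold that of control 2 (2.69 to 2.77). The log2 difference from the mean of the controls was 1.58. This excess was smaller when each cell had an equal say. As the mean of each cell's own CPM the log2 difference was 1.04, and with each gene counted once per cell it was 0.29. On that last scale which relates cells with a count to all genes detected, control 1, control 2 and the cKO-labelled library stood at 651, 538 and 727, so that the cKO-labelled library exceeded control 1 by less than the controls differed.

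Krt16, the usual partner of Krt6a in wounded epidermis, was at 46.3 CPM in control 1 and 12 CPM in control 2, against 66.1 CPM in the cKO-labelled library. Its value in that library was 1.43-fold that of control 1 (1.32 to 1.55) and 5.53-fold that of control 2 (4.93 to 6.21). The controls themselves differed 3.87-fold, more than the first of these ratios. The log2 difference of 1.15 from the mean of the controls fell to 0.50 without control 2 and reached 2.37 without control 1.

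**Figure D1:**
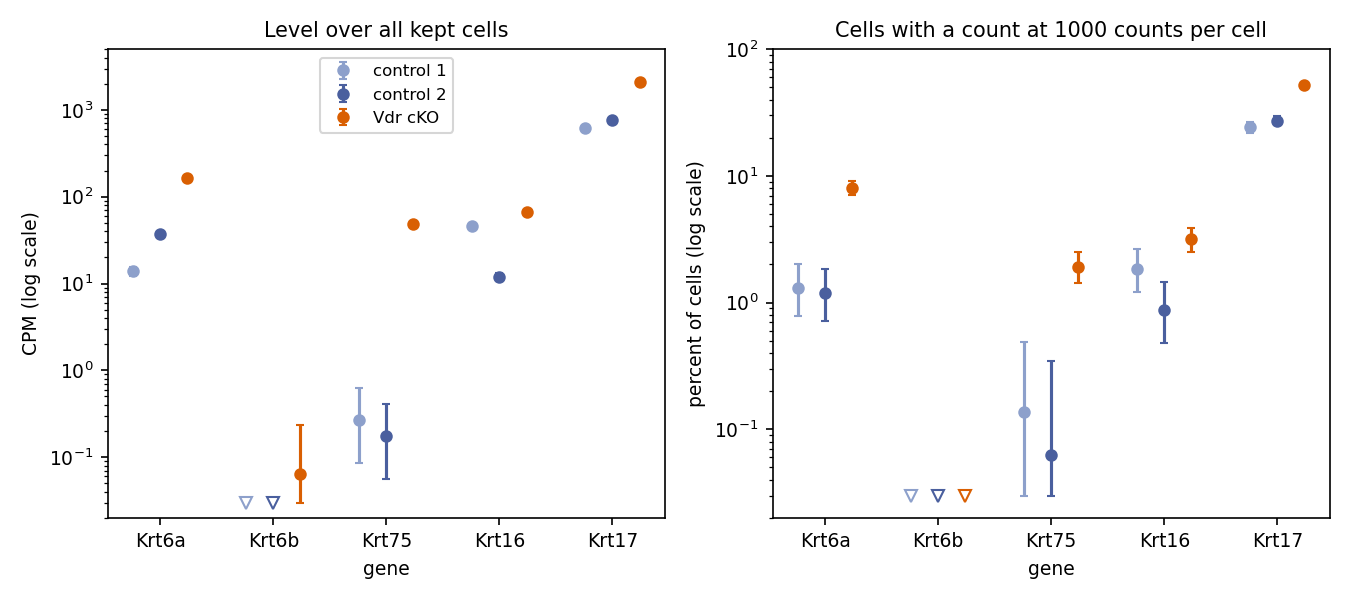
Level of each keratin in CPM (left) and percent of thinned cells with a count (right), both on log scales, in the 3 libraries, with exact intervals at 95% cut off at the foot of the axis and open triangles for values of 0. Krt6a, Krt17 and Krt75 lie above both controls in the cKO-labelled library, while for Krt16 control 1 at 46.3 CPM lies close to its 66.1 CPM.

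The 5 keratins together made up 687 CPM in control 1 and 813 CPM in control 2, against 2360 CPM in the cKO-labelled library, a log2 difference of 1.65 against -0.24 between control 1 and control 2. Krt17 supplied most of these counts, so the sum follows Krt17. The level of 50 CPM was reached by 3919 genes in some library, and in the cKO-labelled library 152 of them (3.88%) exceeded both controls by over 2-fold and 45 (1.15%) were as far below both. Of the keratins, 3 reached this level, and Krt6a and Krt17 were among the genes above while none was below. Krt75 at 48.0 CPM fell just short of the level. With a level of 10 CPM, 702 of 8806 genes (7.97%) were above and 127 (1.44%) below, and Krt75 joined Krt6a and Krt17 as 3 of the 4 keratins tested. Scaling by edgeR's TMM factors shifted the median of all genes by -0.19 on the log2 scale and gave 107 genes above and 86 below. DESeq2's factors shifted it by -0.22 and gave 100 above and 96 below. Krt6a and Krt17 stayed above both controls by over 2-fold under both scalings.

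The share of cells with a count rests on depth, so each cell was thinned to 1000 counts before shares were compared, which left 1466, 1597 and 2562 cells. At least 1 of the 5 keratins was found in 26.0% and 28.7% of the cells of control 1 and control 2, against 55.9% in the cKO-labelled library. Without thinning the shares were 38.5%, 46.1% and 75.7%. When 200 detected genes were drawn from each cell instead, which sets the number of genes equal, the shares were 18.7%, 18% and 25.9%. The cKO-labelled library was above both controls each way, while the size of the gap varied.

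Krt17 was found in 24.1% and 27.2% of thinned cells of the controls and in 52.0% of the cKO-labelled library (36.2%, 43.9% and 72.7% unthinned). Krt6a was found in 1.30%, 1.19% and 8.04% (7.02 to 9.16), and unthinned in 2.09%, 3.2% and 17.2%. The controls were alike in their share of Krt6a cells, though their CPM differed 2.66-fold. Krt16 was found in 1.84%, 0.877% and 3.16% of thinned cells, and unthinned in 2.70%, 1.57% and 6.64%. Krt75 was found in 0.136%, 0.0626% and 1.91%, and unthinned in 2, 1 and 105 cells. With 200 detected genes drawn from each cell, Krt17 was found in 17.3%, 16.5% and 21.2% of cells in the same order of libraries. Krt6a was then at 0.811%, 0.844% and 4.2%, Krt16 at 1.15%, 0.724% and 1.53%, and Krt75 at 0.0676%, 0% and 0.877%. The gaps of Krt17 and Krt16 were thus much smaller in that setting.

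Immune cells, which should lack these keratins, were read to gauge free RNA and mixed barcodes. Barcodes with antigen-presenting or T cell markers numbered 3, 7 and 27 in the 3 libraries, so only the last group is of use, at a median depth of 6036 counts against 4021 in the other cells. Krt6a was found in 11.1% of these 27 thinned cells (2.35 to 29.2) and in 8.01% of the other cells, and Krt16 in 3.70% and 3.16%. Neither share was thus lower in the immune cells, although the level of Krt6a was 62.7 CPM in the immune cells and 165 CPM in the others. Krt17 was found in 37.0% of the immune cells (19.4 to 57.6) and in 52.1% of the others, at 976 CPM and 2098 CPM. Krt75 was found in 0 of the 27 immune cells, which allows a share of up to 12.8%, above the 1.93% of the other cells. The immune barcodes also carried Lor at 26733 CPM against 11713 CPM in the others, and Krt10 at 24567.2 against 24160.5 CPM. Krt14 was found in 66.7% of them and 58.4% of the others after thinning. They thus held keratinocyte RNA much as the other cells did and cannot set a background for these keratins. The part of free RNA in the shares of Krt6a and Krt16 cannot be told from them.

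Much of each keratin's counts came from few of the cells that held it, and for Krt17 the counts were spread over the most cells. A single cell held 32.2% of all Krt6a counts in control 1 and 32.6% in control 2, but 8.94% in the cKO-labelled library. Without the 3 cells with the most counts in each library, Krt6a was at 6.28, 12 and 138 CPM. Krt16 was then at 16.6, 3.07 and 46.9 CPM, so that the cKO-labelled library exceeded control 1 by more than in the full sums. Krt17 was at 554, 695 and 1933 CPM. Krt75 was at 0, 0 and 29.1 CPM.

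In the cKO-labelled library, 1 cell held 23.4% of the Krt75 counts. It was a deep cell, with 133447 counts in all, of which 348 were Krt75, 453 Krt6a, 80 Krt16 and 1153 Krt17, although 26 cells of that library were deeper. The cell with the next most Krt75 held 123 counts of it with 68 of Krt6a and 1032 of Krt17. The fourth held 97 counts of Krt75 with 49 of Krt6a and 43 of Krt16, and 0 of Krt17. Cells rich in Krt75 were thus not alike in their type I keratins. Doublets were not called, and their part in these values was not tested.

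**Figure D2:**
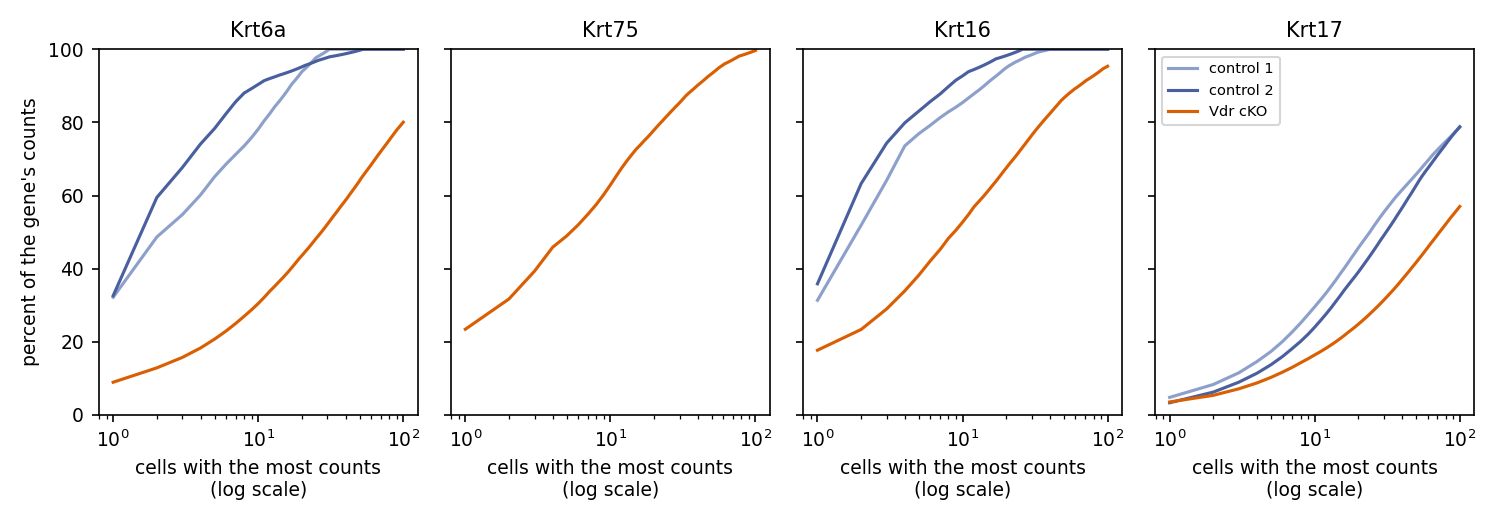
Cumulative share of each keratin's counts, in percent, against the number of cells ranked from the most counts of it, on a log scale, in each library (for Krt75 the cKO-labelled library only). The first cell holds under 5% of Krt17 in each library, while 1 cell holds 32.2% of Krt6a in control 1, 32.6% in control 2 and 8.94% in the cKO-labelled library.

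To find which cells carried these keratins, cells were sorted by Lor, which marks the granular layer, by Krt10 of the suprabasal layers and by Krt14 of the basal layer. In thinned counts, cells with over 11 counts of Lor were called Lor-high, cells with over 3 and up to 11 Lor-mid, and the rest were split by whether Krt10 or Krt14 had more counts. These are ranges and not cell types, and 501 and 304 of 5625 cells lay within 1 count of the lower and the upper limit of Lor. The Krt14-led class held 21, 45 and 169 cells of the 3 libraries, and the Krt10-led class 381, 514 and 843. Cells with as many counts of both numbered 5, 20 and 52, too few to weigh in the controls. The Krt14-led cells were not alike between libraries. Krt5, the partner of Krt14 in basal cells, was found in 38.1%, 28.9% and 82.2% of them after thinning, at 1009, 907 and 4864 CPM, and Krt10 in 38.1%, 33.3% and 75.7%. Their median depths were 23996, 11278 and 5841 counts. Most control cells of this class thus showed no Krt5 at that depth, and the part of this in the values of the class was not tested.

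In the cKO-labelled library Krt6a was highest in Krt14-led cells, at 450 CPM, against 0 CPM in control 1 and 2.65 CPM in control 2. These control values rest on 0 counts in 21 cells and on 3 counts in 1 of 45 cells, none above the floor of 3 counts. In Krt10-led cells Krt6a was at 13.5, 30.2 and 143 CPM. It was at 7.84, 14.3 and 165 CPM in Lor-mid cells and at 13.4, 65.9 and 123 CPM in Lor-high cells. The cKO-labelled library was above both controls in each of these classes. The value of 123 CPM was 77.5 CPM without its highest cell, and with other limits of Lor it was 80.1 CPM against 74.2 CPM in control 2. Read by Krt14 alone, cells of the cKO-labelled library with a count of Krt14 had 219 CPM of Krt6a and those without had 76.8 CPM. In control 1 the order was the other way, with 7.82 and 15.6 CPM, and in control 2 the values were 35.1 and 37.2 CPM.

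Krt17 in Krt14-led cells was at 35.6, 142 and 2348 CPM in control 1, control 2 and the cKO-labelled library. In both controls Krt17 was highest in Lor-mid cells, at 1240 and 1613 CPM, against 2154 CPM in the cKO-labelled library. In Lor-high cells it was at 732, 872 and 2100 CPM. Apart from cells with equal counts of Krt10 and Krt14, the gap between the cKO-labelled library and the controls was widest among Krt14-led cells. The controls had only 21 and 45 of those, most of them without Krt5 after thinning. Read by Lor alone, control cells with a count of Lor had 819 and 1010 CPM of Krt17 and those without had 236 and 285 CPM, whereas the cKO-labelled library had 2131 and 1906 CPM.

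Krt16 in Krt14-led cells was at 2.09, 0 and 174 CPM, and in Krt10-led cells at 29.2, 13.7 and 96.6 CPM. In Krt14-led cells the control values rest on 2 and 0 counts, under the floor of 3 counts. In Lor-mid cells the order turned, with 73.9 CPM in control 1 and 5.87 CPM in control 2, against 36.0 CPM in the cKO-labelled library, and in Lor-high cells the values were 66.2, 14.1 and 30.0 CPM. Without the highest cell of each library, control 1 and the cKO-labelled library were at 23.8 and 22.9 CPM in Lor-mid cells and at 13.8 and 22.0 CPM in Lor-high cells. The order in Lor-high cells thus rested on single cells, and with other limits of Lor it turned, to 5.62, 16.5 and 22.4 CPM in control 1, control 2 and the cKO-labelled library. In Krt14-led cells of the last, Krt16 was at 93.4 CPM when classes were set from each cell's full counts, below the 105 CPM of its Krt10-led cells.

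Krt75 in the cKO-labelled library was at 83.7 CPM in Krt14-led cells, 49.7 CPM in Krt10-led cells, 22.9 CPM in Lor-mid cells and 56.1 CPM in Lor-high cells, the last being 21.1 CPM without its highest cell. This order was not stable. With classes from each cell's full counts, Lor-mid cells were at 68.7 CPM and Lor-high cells at 21.7 CPM, and with other limits of Lor, Krt14-led cells were at 49.8 CPM, Krt10-led cells at 66.8 CPM, Lor-mid cells at 48.5 CPM and Lor-high cells at 26.1 CPM. Cells with a count of Krt14 had 65.1 CPM of Krt75 and those without had 20.5 CPM.

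**Figure D3:**
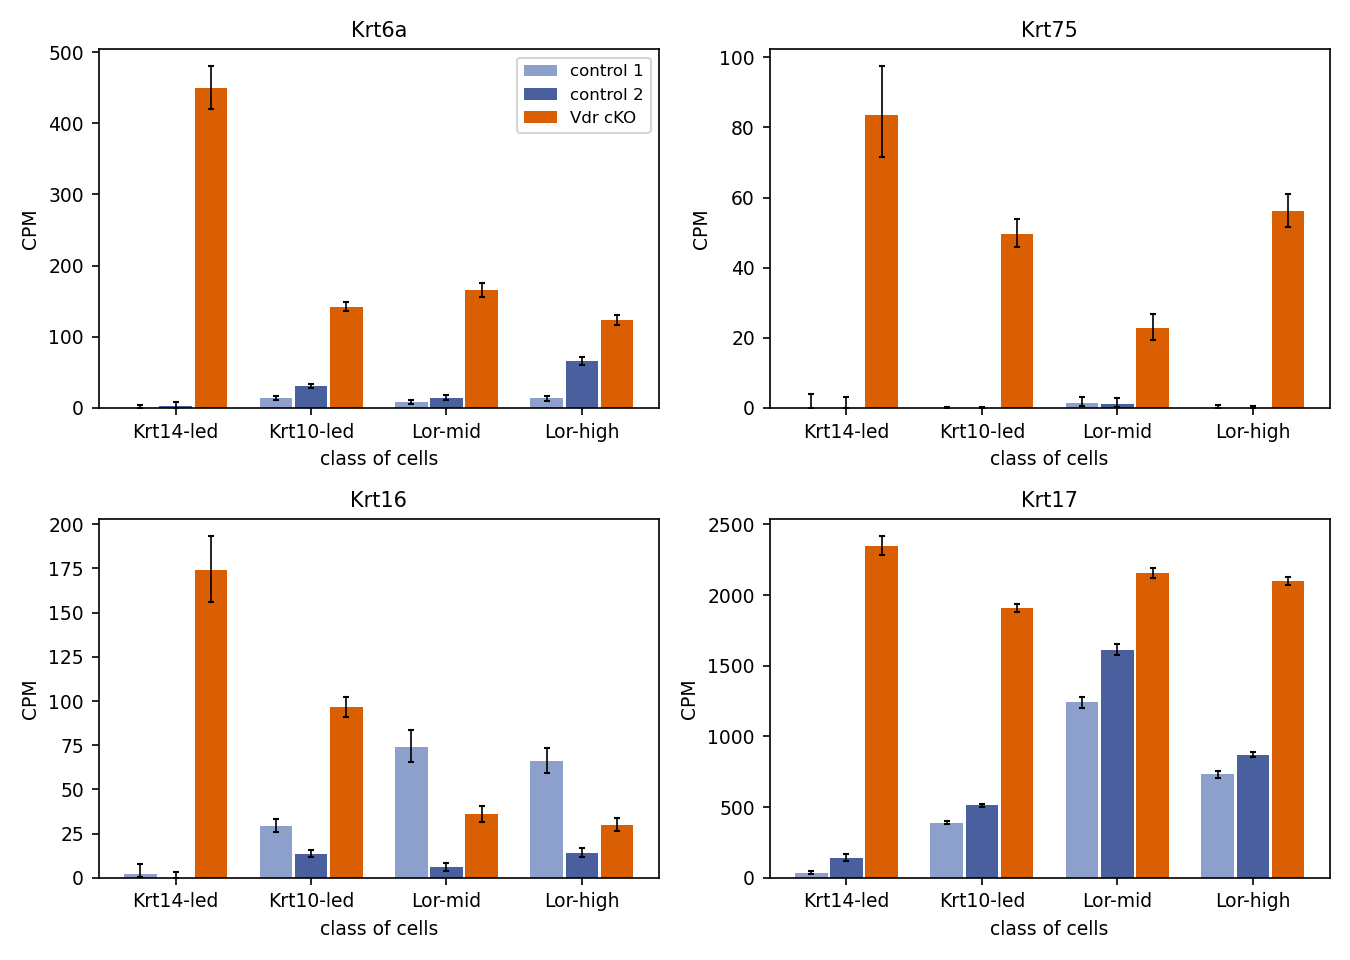
Level of Krt6a, Krt16, Krt17 and Krt75 in CPM, as bars from 0, in classes of cells sorted by Lor, Krt10 and Krt14, for the 3 libraries, with exact Poisson intervals at 95%. In Krt14-led cells Krt6a was at 0, 2.65 and 450 CPM, on 0 and 3 counts in the controls, and Krt17 at 35.6, 142 and 2348 CPM. Krt16 was higher in control 1 than in the cKO-labelled library in Lor-mid and Lor-high cells. That order turned in Lor-high cells with other limits of Lor.

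Within the cKO-labelled library, cells with Krt75 or Krt6a held Krt16, and each other, more often than the rest did. Of its 49 thinned cells with Krt75, 15 also held Krt6a, or 30.6% (18.3 to 45.4), against 7.60% of cells without Krt75. Krt16 was found in 18.4% of the Krt75 cells (8.76 to 32.0) against 2.87%. For both pairs the intervals did not meet the share in cells without Krt75. Krt17 was found in 65.3% (50.4 to 78.3) against 51.7%, a difference within the interval. Unthinned, 56 of the 105 cells with Krt75 held Krt6a, or 53.3% against 15.7%.

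Krt6a and its partner Krt16 also went together, with Krt16 in 10.7% of cells with Krt6a (6.81 to 15.7) against 2.50% of cells without it. Krt17 was found in 65.0% of cells with Krt6a against 50.8%. In each control 1 of the 19 thinned cells with Krt6a held Krt16, or 5.26% (0.133 to 26.0). Of thinned cells without Krt6a, 1.80% held Krt16 in control 1 and 0.824% in control 2. Unthinned, the shares were 9.68% against 2.55% in control 1 and 9.43% against 1.31% in control 2. In the cKO-labelled library they were 14.7% against 4.97%. At these depths the direction was the same in each library, on few cells in the controls. At 2000 counts per cell it turned in the controls, with Krt16 in 0 of 24 and 0 of 21 cells with Krt6a. Of cells without Krt6a, 2.17% and 1.11% then held Krt16, and the cKO-labelled library stood at 13.3% against 3.76%. After thinning, Krt17 was found in 14 of 27 cells with Krt16 in control 1, or 51.9%. In control 2 it was found in 1 of 14, or 7.14%, so the controls did not share a pattern for this pair. At least 2 of the keratins were found in 1.36%, 0.689% and 8.16% of thinned cells, and at least 3 in 1, 0 and 22 cells. All of Krt6a, Krt16, Krt17 and Krt75 were found in 6 thinned cells of the cKO-labelled library.

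**Figure D4:**
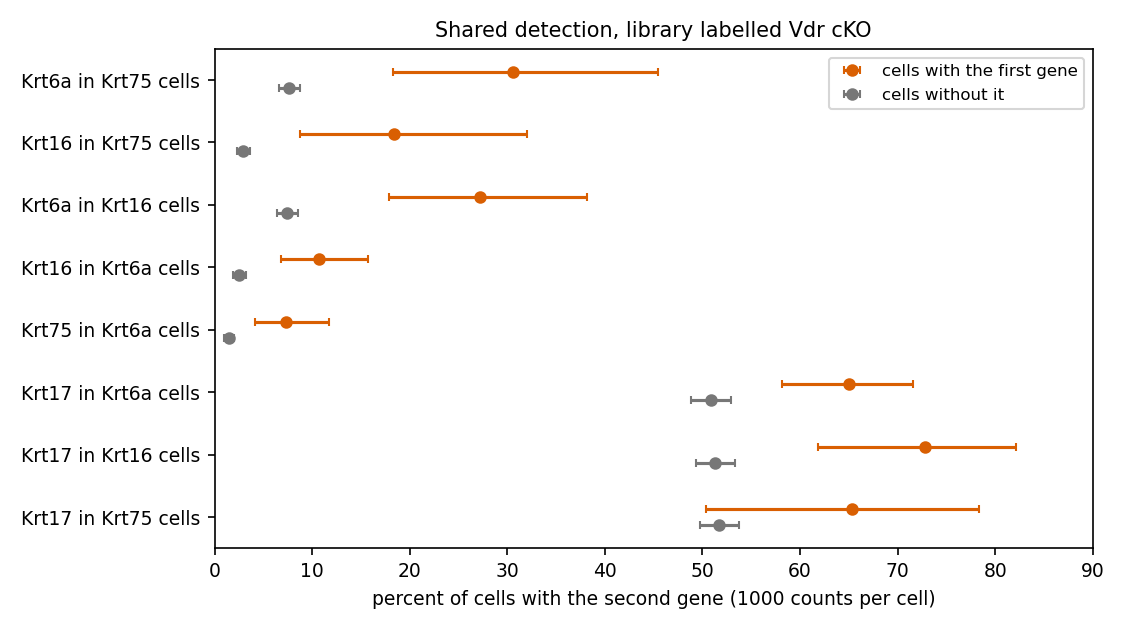
Share of cells of the cKO-labelled library, thinned to 1000 counts, that hold a second keratin among cells with and without the first, in percent, with exact binomial intervals at 95%. Krt6a was found in 30.6% of cells with Krt75 and 7.60% of cells without it, while Krt17 in cells with and without Krt75 stood at 65.3% and 51.7%.

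The 105 cells with Krt75 in the cKO-labelled library were deeper than the rest, at a median of 6369 against 4001 counts. They had Krt6a at 936 CPM against 98.9 CPM and Krt16 at 490 CPM against 30.6 CPM. Besides the keratins, the genes that most set them apart included Gpx3, a secreted glutathione peroxidase, at 126 against 9.0 CPM, Edn1, which encodes endothelin, at 186 against 23.2 CPM, Nrp2, a receptor for semaphorins, at 78.2 against 6.79 CPM, and Cryab, a small heat shock protein, at 173 against 25.2 CPM. These genes were chosen after their values were seen and are given as a description. Granular layer markers summed to 7640 CPM in these cells against 15182 CPM in the rest, and sebaceous markers to 2758 against 1231 CPM. Basal markers summed to 16382 against 12096 CPM, bulge markers to 523 against 284 CPM and suprabasal markers to 46333 against 52869 CPM. The higher sebaceous sum was not particular to Krt75. It was 2140 against 990 CPM for cells with Krt6a and 2908 against 1146 CPM for Krt16, but 1307 against 1602 CPM for Krt17. Of hair shaft keratins, Krt35 was found in 9, Krt84 in 5 and Krt87 in 3 of the 105 cells with Krt75, with no share of the rest given beside them.

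The inner root sheath lies next to the companion layer. Cells with at least 5 counts per 1000 and at least 2 genes of the inner root sheath list numbered 0 and 0 in the controls and 13 in the cKO-labelled library. Those 13 cells held 9 counts of Krt6a (165 CPM) and 58 counts of Krt17 (1061 CPM), and 0 of Krt16 and Krt75. For Krt75, 0 of 13 cells allows a share of up to 24.7%, above the 1.92% of the other cells, so 13 cells are too few to judge an overlap. Inner root sheath markers summed to 246 CPM in the cells with Krt75 and 234 CPM in the rest.

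Across cells, the genes that most often varied with Krt17 were Cst6, an inhibitor of cysteine proteases made in the upper epidermis, and Krt79, a keratin of the follicle opening and the sebaceous duct. Over thinned cells, Pearson's r of log counts with Cst6 was 0.10, 0.22 and 0.21 in control 1, control 2 and the cKO-labelled library, and with Krt79 it was 0.09, 0.18 and 0.24. These values are weak, come from cells of shared libraries, and are given as a description. Cst6 was found in 44.9% of control 1 cells with Krt17 and 34.0% without, in 62.5% and 47.3% for control 2, and in 75.9% and 61.1% for the cKO-labelled library. Krt79 was found in 18.9% and 13.0%, in 16.1% and 9.47%, and in 40.9% and 23.6%. Both genes were picked for their mean r with Krt17 over these same cells. Their higher shares in cells with Krt17 thus follow from that choice and add no separate result. For Krt6a, Krt16 and Krt75 the most alike genes rested on few cells in the controls and are no finding. They were Kdm3a, Cald1, Fst, Palld and Sirt7 for Krt6a, Pdzrn3, Sprr1b, Aqp3, Ppfia1 and Chd8 for Krt16, and Oat, Pex19, Gbf1, Arl5b and Tcf12 for Krt75.

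At the level of 50 CPM, other genes of wounded epidermis gave a count near the share over all genes (3.88% above and 1.15% below). Of 20 genes known to rise around wounds, 18 were in the data, and of the 5 at 50 CPM or more 0 were over 2-fold above and 0 below both controls, with a median log2 difference of -0.22 against 0.00 over all genes tested. S100a8, an alarmin of stressed epidermis, was at 8.99, 23.7 and 0.323 CPM in control 1, control 2 and the cKO-labelled library. Sprr1b, a cornified envelope precursor, was at 54.0, 5.82 and 3.10 CPM, and Fosl1, an AP-1 subunit, at 8.03, 7.53 and 0.905 CPM. Areg, an EGF receptor ligand, was at 9.63, 8.02 and 25.4 CPM. Ereg, another such ligand, was at 90.4, 84.1 and 42.7 CPM, and passed 2-fold below both controls under TMM, DESeq2 and the scaling without the most abundant genes. Sprr1a passed 2-fold above without control 1. With a level of 10 CPM Areg was above and S100a8 and Il1a were below, beside 7.97% of all genes above and 1.44% below.

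Of 11 other epithelial keratins, 9 reached 50 CPM, and 4 of them were over 2-fold above both controls in the cKO-labelled library, with 0 below and a median log2 difference of 0.14. Over all genes 3.88% were above. The 4 were Krt5, Krt14 and Krt15 of the basal layer and Krt79. As the mean of each cell's CPM, Krt5 alone was above, and with each gene counted once per cell 0 were. Of 12 regulators tied to these keratins, 8 were tested and 3 were above, beside the same 3.88%, with a median log2 difference of 1.07. They were the AP-1 subunits Fos at 424, 358 and 948 CPM, Jun at 244, 253 and 1121 CPM, and Junb at 175, 178 and 432 CPM. Fos was no longer over 2-fold above under TMM or DESeq2 factors, and Jun alone was with each gene counted once per cell. Nfe2l2, a regulator of oxidative stress genes, was at 23.6, 31.6 and 64.0 CPM, and Trp63, the master regulator of basal keratinocytes, at 123, 134 and 249 CPM. Of the inner bulge list, Fgf18 was at 2.29, 8.50 and 12.4 CPM, and Krt6a itself was the member tested.

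**Figure D5:**
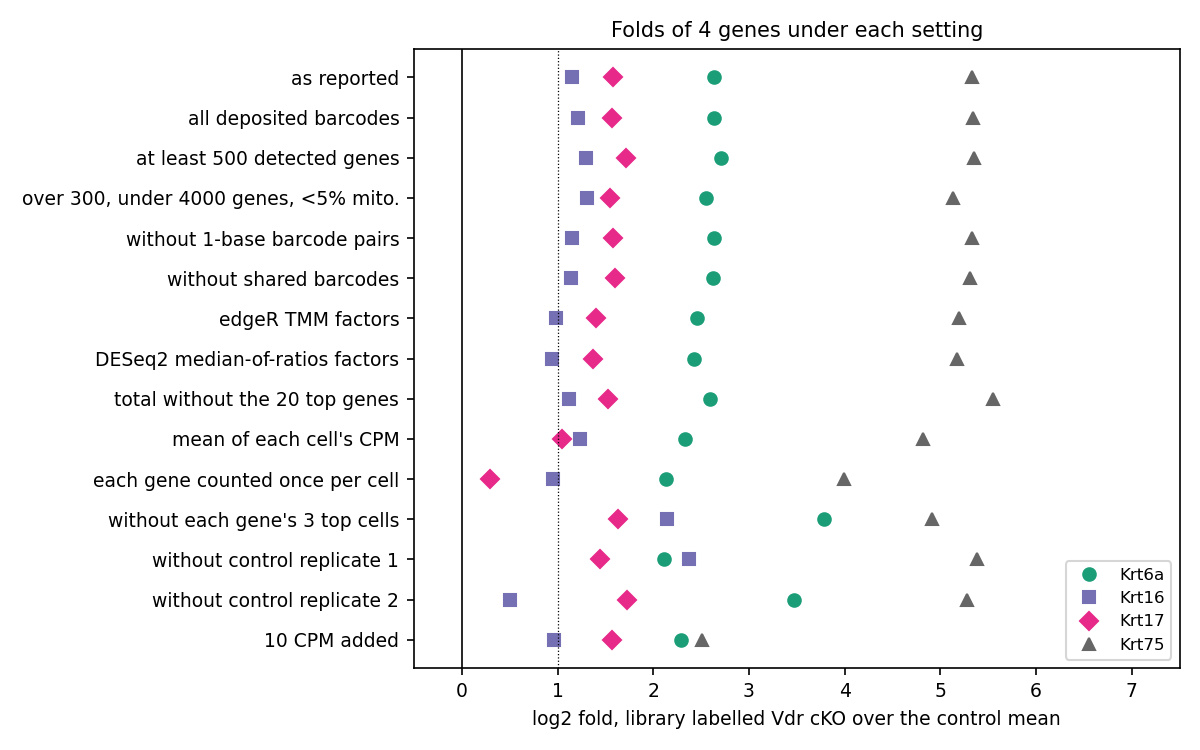
Log2 difference of each keratin between the cKO-labelled library and the controls under each way of processing the data, with a dotted line at 2-fold (log2 of 1). Krt6a ran from 2.12 to 3.78, Krt16 from 0.50 to 2.37, Krt17 from 0.29 to 1.73 and Krt75 from 2.50 to 5.55, so that each stayed above 0.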

How the data were processed

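Single-cell libraries of P18 dorsal skin were made by the authors with the Nadia system and the RNAdia kit. The deposited matrices hold whole-number counts per gene symbol and barcode, and the genome build in the submitters' processing notes is mm10. The aligner, and whether molecular identifiers were collapsed, are not given in the sources used here. Cells needed 200 or more genes and no more than 20% mitochondrial counts, and doublets were not called. Counts were summed per library and scaled to CPM, and 1 CPM was added before log2. With 1 Vdr cKO library no model was fitted across genes, and a gene was called above or below where it was over 2-fold from both controls at 50 CPM or more in a library. Shares used cells thinned to 1000 counts. Immune barcodes had at least 3 markers of 1 immune type at 0.5% of counts. The keratins and gene lists were chosen with earlier results of these data known. The genes named were the 5 keratins, the genes of 4 lists and, for each keratin, the 5 most alike by mean Pearson's r. Gpx3, Edn1, Nrp2, Cryab, Krt35, Krt84 and Krt87 fall outside this rule and were chosen after their values were seen. Alternatives covered cell filters, scaling (edgeR 4.0.16 and DESeq2 1.42.0 in R 4.3.3), levels, thinning, barcodes and leaving out each control. Leaving out the 3 richest cells, drawing 200 genes per cell and leaving out the richest cell in the ranking of genes were chosen after seeing the data. Python 3.11.15, numpy 2.4.6 and scipy 1.17.1 were used. The calls and the Poisson intervals were tested on simulated counts with no spread between libraries beyond counting error. Thinning was tested on the cells of control 1, and the other intervals were not tested.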

Additional observations from a re-analysis of the deposited data

Results flagged for a closer look

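Barcodes that were not kept as cells held these keratins in the cKO-labelled library at levels above those of both controls. Krt6a was at 230 CPM in them, against 4.38 and 74.3 CPM in the controls' own barcodes that were not kept. Krt17 was at 1285 CPM, against 808 and 767 CPM. Krt75 was at 55.5 CPM, against 0 and 0 CPM. The 3 values of the cKO-labelled library rest on 29, 162 and 7 counts of 126039. The barcodes not kept in control 1 and control 2 held 1141347 and 551524 counts in all.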

How the results depend on the processing

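The log2 differences of Krt6a, Krt16, Krt17 and Krt75 kept their direction under every alternative, while orders within classes of cells did not all hold. Krt6a and Krt17 were over 2-fold above both controls, 2 keratins in all, and 1 (Krt6a) remained when each cell's CPM was averaged and 1 with each gene counted once per cell. The count was 2 to 3 when a control was left out, as Krt16 passed without control 1. None of the keratins was below in any setting. The summed log2 difference of 1.65 was 1.47 with TMM, 1.44 with DESeq2 factors, 1.15 as the mean of each cell's CPM and 0.59 with each gene counted once per cell, and 1.54 to 1.78 without a control. The share of cells of the cKO-labelled library with any of the keratins, 55.9%, was 43.3% at 500 counts, 67.7% at 2000, 75.7% unthinned, 39.7% for at least 2 counts, 59.6% for cells with 500 genes, 58.0% for cells with 300 to 4000 genes and 25.9% with 200 genes drawn. Krt6a in Krt14-led cells, 450 CPM, was 484 CPM with other limits of Lor. Class values of Krt16 and Krt75 moved more, with Krt16 in Lor-high cells of control 1 going from 66.2 to 5.62 CPM with other limits of Lor, and, with classes from full counts, Krt16 in Krt14-led cells of the cKO-labelled library from 174 to 93.4 CPM and Krt75 in its Lor-mid cells from 22.9 to 68.7 CPM. The share of cells with Krt75 that held Krt6a, 30.6%, was 53.3% unthinned. The cause of these shifts was not tested. Over all genes, 152 above and 45 below became 264 and 80 without control 1, 241 and 139 without control 2, 361 and 196 at 1.5-fold, 702 and 127 at 10 CPM, 1874 and 218 with no minimum level, and 213 and 22 without the 3 richest cells. No paired analysis was made because the labels name no pairs of libraries, and with 1 Vdr cKO library no test was made.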
